A study of Mus musculus with 12 samples.

Results

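The numbered Gpr genes are the mouse genes whose symbol is Gpr followed by a number and at most 1 letter. They were taken by this symbol alone, and 73 of the 36439 gene identifiers in the count files carry such a symbol. Expression was measured by RNA sequencing in tumour-associated macrophages (TAMs), the macrophages that accumulate inside a solid tumour, of C57BL/6 mice that bore subcutaneous Lewis lung carcinoma, a tumour line that is transplanted from mouse to mouse. There were 12 libraries in 4 groups of 3, all from cells carrying F4/80, a surface protein of mouse macrophages. MRC1+ TAMs also carried the mannose receptor MRC1, and CD11c+ TAMs carried the integrin CD11c. The other groups were TAMs that overexpressed the microRNA miR-511-3p or a mutated form of it, both from constructs labelled SFFV. The labels give neither the age of the mice, nor the share of cells that carried a construct, nor whether replicates came from separate mice, so p-values speak only of the spread among the libraries, and that spread may be technical.

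G protein-coupled receptors are membrane proteins that pass an outside signal to a heterotrimeric G protein inside the cell, which then acts on cAMP, calcium or the cytoskeleton. A Gpr number was given to receptor-like genes found by sequence before a ligand was known. The set is therefore mixed. It holds receptors since matched to protons, oxysterols or lysolipids, receptors that are still orphans, and membrane proteins of the Golgi and lysosome that were numbered by resemblance. The label orphan thus holds for only some of them.

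Libraries held 15664146 to 17689064 reads over genes in MRC1+ TAMs, 10824918 to 17318957 in CD11c+ TAMs, 23326219 to 27186233 in miR-511-3p TAMs and 22906418 to 27890433 in mutated miR-511-3p TAMs. Levels are counts relative to the library total (CPM), scaled by edgeR's TMM factors within each pair of groups compared, with SD over n = 3 libraries. Between genes, levels were compared as CPM per kilobase of exon. Macrophage markers (9 genes, none at 0) summed to 9220 to 10600 CPM in MRC1+, 5910 to 7590 in CD11c+, 10700 to 12000 in miR-511-3p and 9980 to 11000 in mutated miR-511-3p TAMs. The list includes Mrc1, whose protein was used to sort the MRC1+ group, so the sum is not independent of the sort. In the test of the sorted groups given below, 3 of the 9 were higher in MRC1+ TAMs and none lower. Of all genes tested there, 6.91% were higher and 9.71% lower. The first CD11c+ library stood apart, at 37.4 on the second principal component of the sorted libraries, where the others lay between -18.6 and 6.28. Its 8 fibroblast markers summed to 1190 CPM, while those markers gave 270 and 330 CPM in the remaining CD11c+ libraries and 617 to 868 CPM in MRC1+ TAMs.

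Most numbered Gpr genes were weakly expressed or not seen. 7 had no read in any library (Gpr6, Gpr12, Gpr20, Gpr25, Gpr139, Gpr142 and Gpr158), and 14 more had 1 to 10 reads over all 12 libraries. 37 had a read in every library, and 25 averaged at least 1 CPM in every group. Together the 73 genes took 0.1% to 0.181% of gene reads per library. Their summed level was 1015, 1022 and 970.5 CPM in the MRC1+ libraries, against 1509, 1872 and 1922 CPM in the CD11c+ libraries. The sum was lower in all 3 MRC1+ libraries, and Gpr141 and Gpr171 alone made up 42.2 to 77.5 CPM of it in MRC1+ and 434 to 457 CPM in CD11c+ TAMs. Without these 2 genes, split off after their values were seen, it was 928 to 958 CPM in MRC1+ and 1075 to 1469 CPM in CD11c+ TAMs. These ranges did not overlap either, but a few abundant genes weigh on them. Gpr35 averaged 113 against 282 CPM, Gpr132 84.6 against 198, Gpr183 74.0 against 132.5 and Gpr65 69.7 against 125.9. Gpr34 (74.7 against 37.3 CPM) and Gpr146 (53.4 against 35.2 CPM) went the other way. The sum thus does not speak for the set as a whole. In the overexpressing cells the sum was 1235 to 1393 CPM with miR-511-3p and 1329 to 1397 CPM with the mutated form, and the groups overlapped.

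Per length, Gpr65 and Gpr132 were among the 3 leading genes of all 4 groups. In MRC1+ TAMs the 3 were Gpr34 (35.7 ± 3.58 CPM per kilobase), Gpr65 (33.7 ± 2.74) and Gpr132 (31.2 ± 6.41), levels that lay within their spread of each other. In CD11c+ TAMs they were Gpr171 (82.8 ± 11.8), Gpr132 (73.0 ± 24.7) and Gpr65 (60.9 ± 11.5), again with overlapping spread, and Gpr34 came ninth at 17.8 ± 5.83. Gpr65 also led in miR-511-3p (74.2 ± 4.86) and mutated miR-511-3p TAMs (72.7 ± 6.27), followed in both by Gpr132 and Gpr137b.

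**Figure D1:**
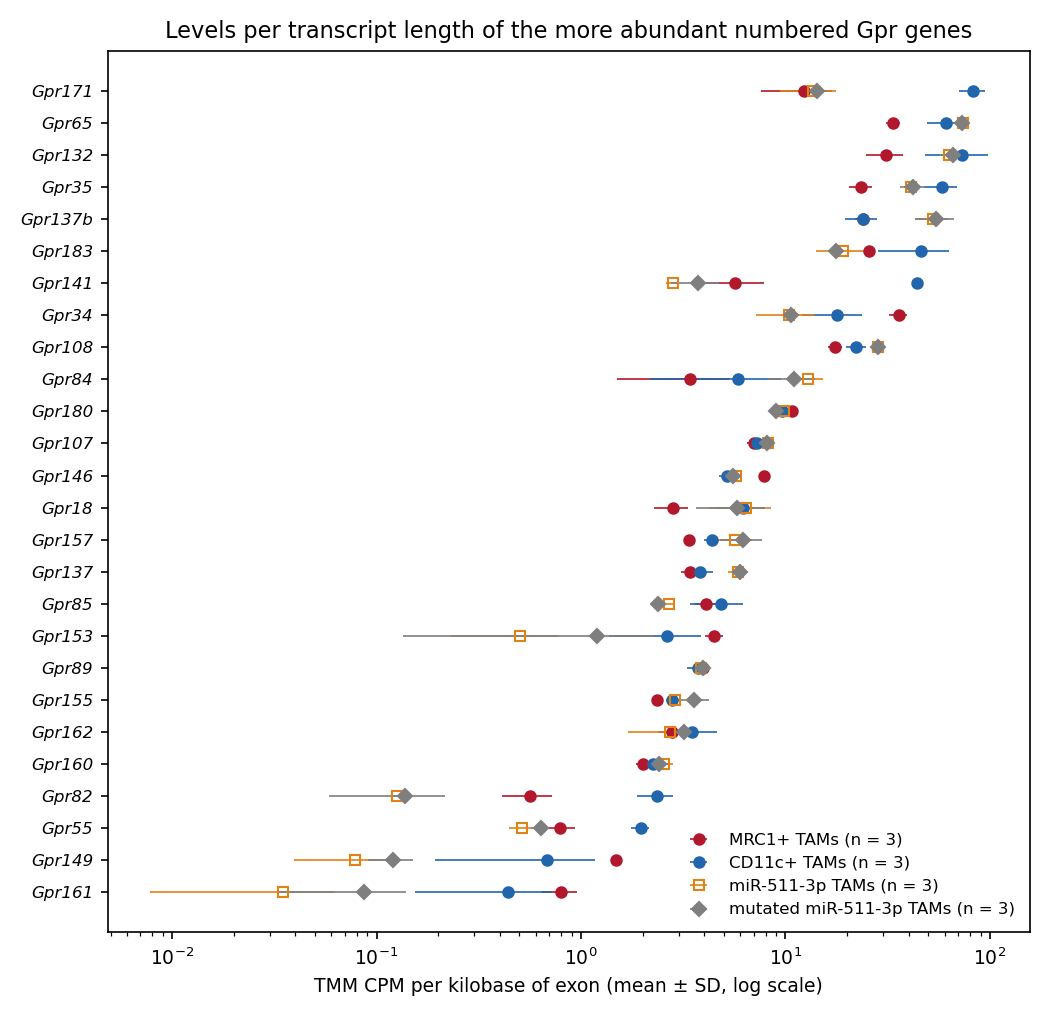
Mean level in TMM CPM per kilobase of exon (log axis, bars SD, n = 3) of 26 numbered Gpr genes with a mean of at least 5 CPM in some group. MRC1+ TAMs (red) lie left of CD11c+ TAMs (blue) for Gpr171, Gpr141, Gpr82, Gpr65, Gpr132 and Gpr35, and right of them for Gpr34 and Gpr146; for Gpr137b the red point lies beneath the blue one.

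The first comparison asked which of these genes part MRC1+ from CD11c+ TAMs. Of the 36 that passed the filter on low counts, 2 were higher and 9 lower in MRC1+ TAMs at an adjusted p under 0.05 (edgeR's quasi-likelihood test, p adjusted by Benjamini and Hochberg's method). That is 5.56% higher and 25% lower, beside 6.91% higher and 9.71% lower among all 15622 genes tested. The median log2 fold change of the 36 was -0.15, against 0.01 over all genes, and the median of its absolute size was 0.43 against 0.25. The groups did not overlap for 4 that were higher and 13 that were lower, where 18.7% of all genes tested were higher and 19.6% lower without overlap. The 37 genes below the filter were not tested. In bulk samples such as these, fewer cells of a type and less RNA per cell cannot be told apart. Markers of dendritic cells moved the same way: 9 of 10 were lower in MRC1+ TAMs, and their sum was 58.8 to 92.1 CPM in MRC1+ against 454 to 644 CPM in CD11c+ TAMs, with none at 0. The 12 markers of T and NK cells summed to 10.1 to 13.2 CPM against 18.4 to 25.7 CPM, and of the 9 tested none was higher and 2 were lower. The 8 endothelial markers summed to 43.8 to 55.9 CPM in MRC1+ against 94.9 to 139 CPM in CD11c+ TAMs, but went both ways: of 6 tested 2 were higher and 3 lower. The 6 epithelial and carcinoma markers summed to 150 to 219 CPM in MRC1+ against 124 to 178 CPM in CD11c+ TAMs, with 4 higher and 2 lower. The part of these cells in the results below was not tested.

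**Figure D2:**
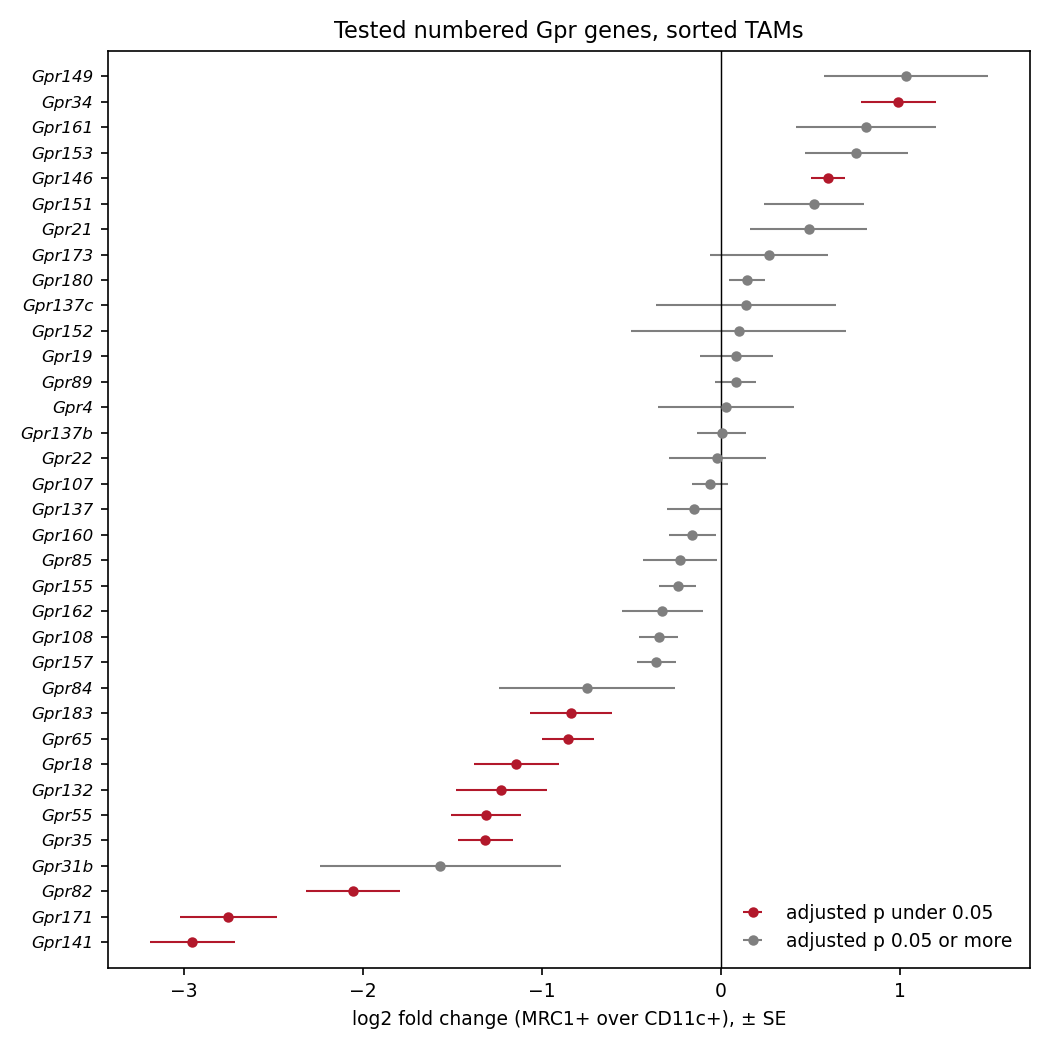
Log2 fold change, MRC1+ over CD11c+ TAMs (bars SE, n = 3 libraries per group), of 35 of the 36 tested numbered Gpr genes in order of size, with those under an adjusted p of 0.05 in red. The red points run from -2.95 for Gpr141 to 0.99 for Gpr34, and Gpr31b at -1.57 lies among them in grey with a wide bar.

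Acid-sensing receptors carry histidines that take up protons outside the cell, and tumours are often acidic. In this class 2 genes were lower in MRC1+ TAMs and none higher, where 9.71% of all genes tested were lower and 6.91% higher. Gpr65, which raises cAMP in acid, had 74.5, 71.2 and 63.4 CPM in MRC1+ libraries, against 99.5, 146 and 133 CPM in CD11c+ libraries. Every MRC1+ library lay under every CD11c+ library, with a log2 fold change of -0.85 ± 0.14 (SE; adjusted p = 0.00599 in edgeR's test). Gpr132, a receptor for oxidised fatty acids for which proton sensing has also been described, had 67.8, 83.5 and 102 CPM in MRC1+ libraries, against 128, 205 and 262 CPM in CD11c+ libraries. The CD11c+ libraries varied widely but did not reach down to the MRC1+ range, and the log2 fold change was -1.23 ± 0.25 (edgeR, adjusted p = 0.0146). This call was lost without the first MRC1+ library (adjusted p = 0.0598) or the second (adjusted p = 0.054) in the same edgeR test.

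Gpr4, the acid sensor known from endothelial cells, stayed near 1 CPM, at 0.901 ± 0.251 CPM in MRC1+ and 0.925 ± 0.362 CPM in CD11c+ TAMs.

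Of 10 listed receptors with a lipid or metabolite ligand, 7 were tested, of which 1 was higher and 4 were lower in MRC1+ TAMs. Of all genes tested, 6.91% were higher and 9.71% lower. The list was drawn up with earlier results of these data known. Gpr35, a receptor at which kynurenic acid and lysophosphatidic acid have been proposed as ligands, had 124, 118 and 97.3 CPM in MRC1+ libraries, against 226, 330.1 and 291 CPM in CD11c+ libraries. All MRC1+ libraries were lower, at a log2 fold change of -1.31 ± 0.16 (edgeR, adjusted p = 0.00113). Gpr55, a receptor for lysophosphatidylinositol, had 2.42, 3.53 and 2.80 CPM in MRC1+ and 6.74, 8.10 and 6.998 CPM in CD11c+ libraries. It was lower in each MRC1+ library, with a log2 fold change of -1.31 ± 0.19 (edgeR, adjusted p = 0.00327). Both calls held under every alternative tried.

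Gpr18, a receptor of lymphoid and myeloid cells with a debated lipid ligand, had 4.23, 4.96 and 3.41 CPM in MRC1+ libraries, against 6.74, 11.6 and 9.57 CPM in CD11c+ libraries. Its log2 fold change was -1.14 ± 0.24 (edgeR, adjusted p = 0.0152), and the groups did not overlap. The call was lost without the first MRC1+ (adjusted p = 0.0536), the third MRC1+ (adjusted p = 0.0606) or the second CD11c+ library (adjusted p = 0.0569) in edgeR's test. Gpr84, a receptor for medium-chain fatty acids that macrophages induce on inflammatory stimulation, had 4.10, 3.85 and 9.63 CPM in MRC1+ and 5.33, 7.62 and 17.3 CPM in CD11c+ libraries. The library numbered 3 was the highest in both groups, the groups overlapped, and the log2 fold change of -0.75 ± 0.49 did not pass (edgeR, adjusted p = 0.326). With the replicate number as a block it passed, at -0.75 ± 0.17 and adjusted p = 0.0305 in edgeR's test, but whether the numbers pair the sorted libraries depended on the scale used to check it. Gpr31b was the remaining tested gene, at 0.469 ± 0.405 CPM in MRC1+ and 1.40 ± 0.781 CPM in CD11c+ TAMs (edgeR, adjusted p = 0.146).

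Gpr34, a receptor for lysophosphatidylserine that is abundant in microglia and other tissue macrophages, went the other way. It had 78.5, 79.5 and 66.1 CPM in MRC1+ libraries, against 36.2, 49.9 and 25.6 CPM in CD11c+ libraries. Every MRC1+ library was higher, with a log2 fold change of 0.99 ± 0.21 (edgeR, adjusted p = 0.0163). The call was lost without the first MRC1+ library (adjusted p = 0.0556) or the second (adjusted p = 0.0617) in edgeR's test. Of the enzymes that make or break down lysophosphatidylserine, Abhd16a, Abhd12 and Pla1a, none passed the test. Gpr174, another lysophosphatidylserine receptor, known from lymphocytes, had 38 reads over the MRC1+ and 23 over the CD11c+ libraries and was not tested.

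Gpr183 (EBI2) guides immune cells along gradients of dihydroxylated oxysterols. It had 72.2, 70.7 and 79.2 CPM in MRC1+ libraries, against 96.3, 111 and 190.0 CPM in CD11c+ libraries. The MRC1+ libraries lay close together and below all CD11c+ libraries, of which the highest stood at 190.0 CPM. The log2 fold change of -0.84 ± 0.23 was close to the threshold (edgeR, adjusted p = 0.0425). The call was lost when any MRC1+ library was left out (adjusted p = 0.12 without the first, 0.128 without the second and 0.0995 without the third, edgeR) or the second CD11c+ library (adjusted p = 0.0602).

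The enzymes of its ligand were set beside it from a list. Ch25h, the hydroxylase that starts the synthesis of the ligand, had 22.3, 18.4 and 20.6 CPM in MRC1+ libraries, against 8.09, 8.64 and 8.75 CPM in CD11c+ libraries. It was higher in all MRC1+ libraries, with a log2 fold change of 1.27 ± 0.12 (edgeR, adjusted p = 0.000398). Cyp7b1, which adds the next hydroxyl group, had 0.124, 0.158 and 0.244 CPM in MRC1+ and 2.35, 2.08 and 2.26 CPM in CD11c+ libraries. It was lower in all MRC1+ libraries, at a log2 fold change of -3.61 ± 0.32 (edgeR, adjusted p = 0.000284). Its MRC1+ values were near the floor, and it came past the filter on low counts through its CD11c+ libraries alone. Its fold change and call are thus no firm measure of the difference. Hsd3b7, which breaks the ligand down, averaged 117 ± 8.16 CPM in MRC1+ and 96.2 ± 11.8 CPM in CD11c+ TAMs and did not pass (edgeR, adjusted p = 0.116), nor did Cyp27a1, another sterol hydroxylase (adjusted p = 0.334).

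**Figure D3:**
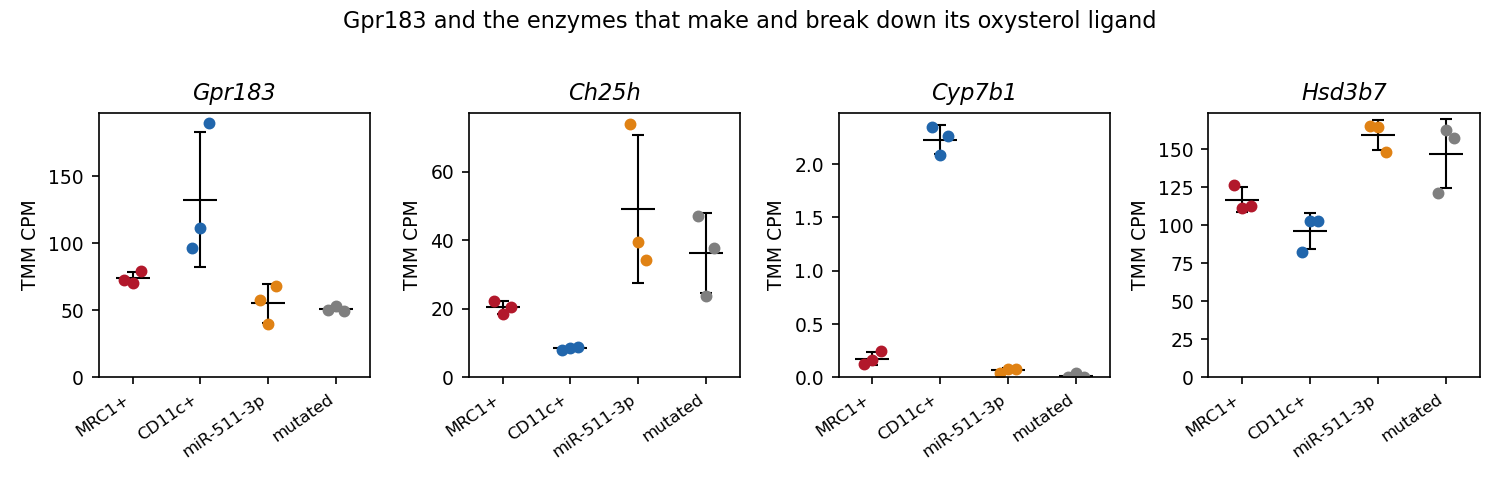
Level in TMM CPM of Gpr183 and of Ch25h, Cyp7b1 and Hsd3b7 in each library (points) with mean and SD (n = 3), MRC1+ left of CD11c+ TAMs and miR-511-3p left of mutated miR-511-3p TAMs. Ch25h is higher and Cyp7b1 lower in MRC1+ than in CD11c+ libraries with no overlap; sorted and overexpressing libraries were scaled separately.

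The next list was labelled as leukocyte receptors of unsettled ligand, a label that does not hold for every gene on it. It was drawn up with earlier results of these data known. The genes with the largest differences, Gpr141 and Gpr171, are on it. Of 11 listed, which include Gpr132, 6 were tested, of which 1 was higher and 4 were lower in MRC1+ TAMs. Of all genes tested, 6.91% were higher and 9.71% lower. Gpr141, an orphan receptor of myeloid cells, had 48.9, 27.1 and 26.0 CPM in MRC1+ libraries, against 279.7, 257 and 253 CPM in CD11c+ libraries. It was lower in all MRC1+ libraries, 7.75-fold, with a log2 fold change of -2.95 ± 0.24 (edgeR, adjusted p = 0.000195). Gpr171, a receptor for which a neuropeptide ligand was proposed in mouse brain, had 28.6, 37.0 and 16.2 CPM in MRC1+ libraries, against 154, 199.7 and 199.1 CPM in CD11c+ libraries. It was lower in all MRC1+ libraries, 6.74-fold, with a log2 fold change of -2.75 ± 0.27 (edgeR, adjusted p = 0.000455).

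Gpr82, an orphan receptor, had 0.995, 1.48 and 1.77 CPM in MRC1+ and 5.80, 7.03 and 4.73 CPM in CD11c+ libraries. All MRC1+ libraries were lower, with a log2 fold change of -2.05 ± 0.26 (edgeR, adjusted p = 0.0016). Gpr146, a receptor linked in mice to plasma cholesterol, was the gene of this list that rose. It had 55.4, 50.2 and 54.5 CPM in MRC1+ libraries, against 32.2, 38.2 and 35.1 CPM in CD11c+ libraries, with a log2 fold change of 0.60 ± 0.10 (edgeR, adjusted p = 0.00454). Gpr141, Gpr171, Gpr82 and Gpr146, like Gpr35, Gpr55 and Gpr65, passed under all 13 alternatives.

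Gpr160 was at 8.49 ± 0.622 CPM in MRC1+ and 9.49 ± 0.494 CPM in CD11c+ TAMs and did not pass (edgeR, adjusted p = 0.437). Gpr33, a receptor that is a pseudogene in most humans, had too few reads to be tested and is named because of its values. It had no read in the 3 MRC1+ libraries and 13, 6 and 7 reads in the CD11c+ libraries. With a floor of 3 reads set for the MRC1+ group, its pooled CD11c+ reads stood 9.45-fold higher relative to library totals. This ratio leaves out the spread among libraries and is no bound on the difference. Gpr33 entered the fit, and was called lower, where all genes with a read were kept. The same held where any 1 MRC1+ library or the second CD11c+ library was left out. It came into these fits through its CD11c+ reads alone and was picked by its values, so these calls are no further support. It had 5 reads in miR-511-3p and 8 in mutated miR-511-3p TAMs.

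**Figure D4:**
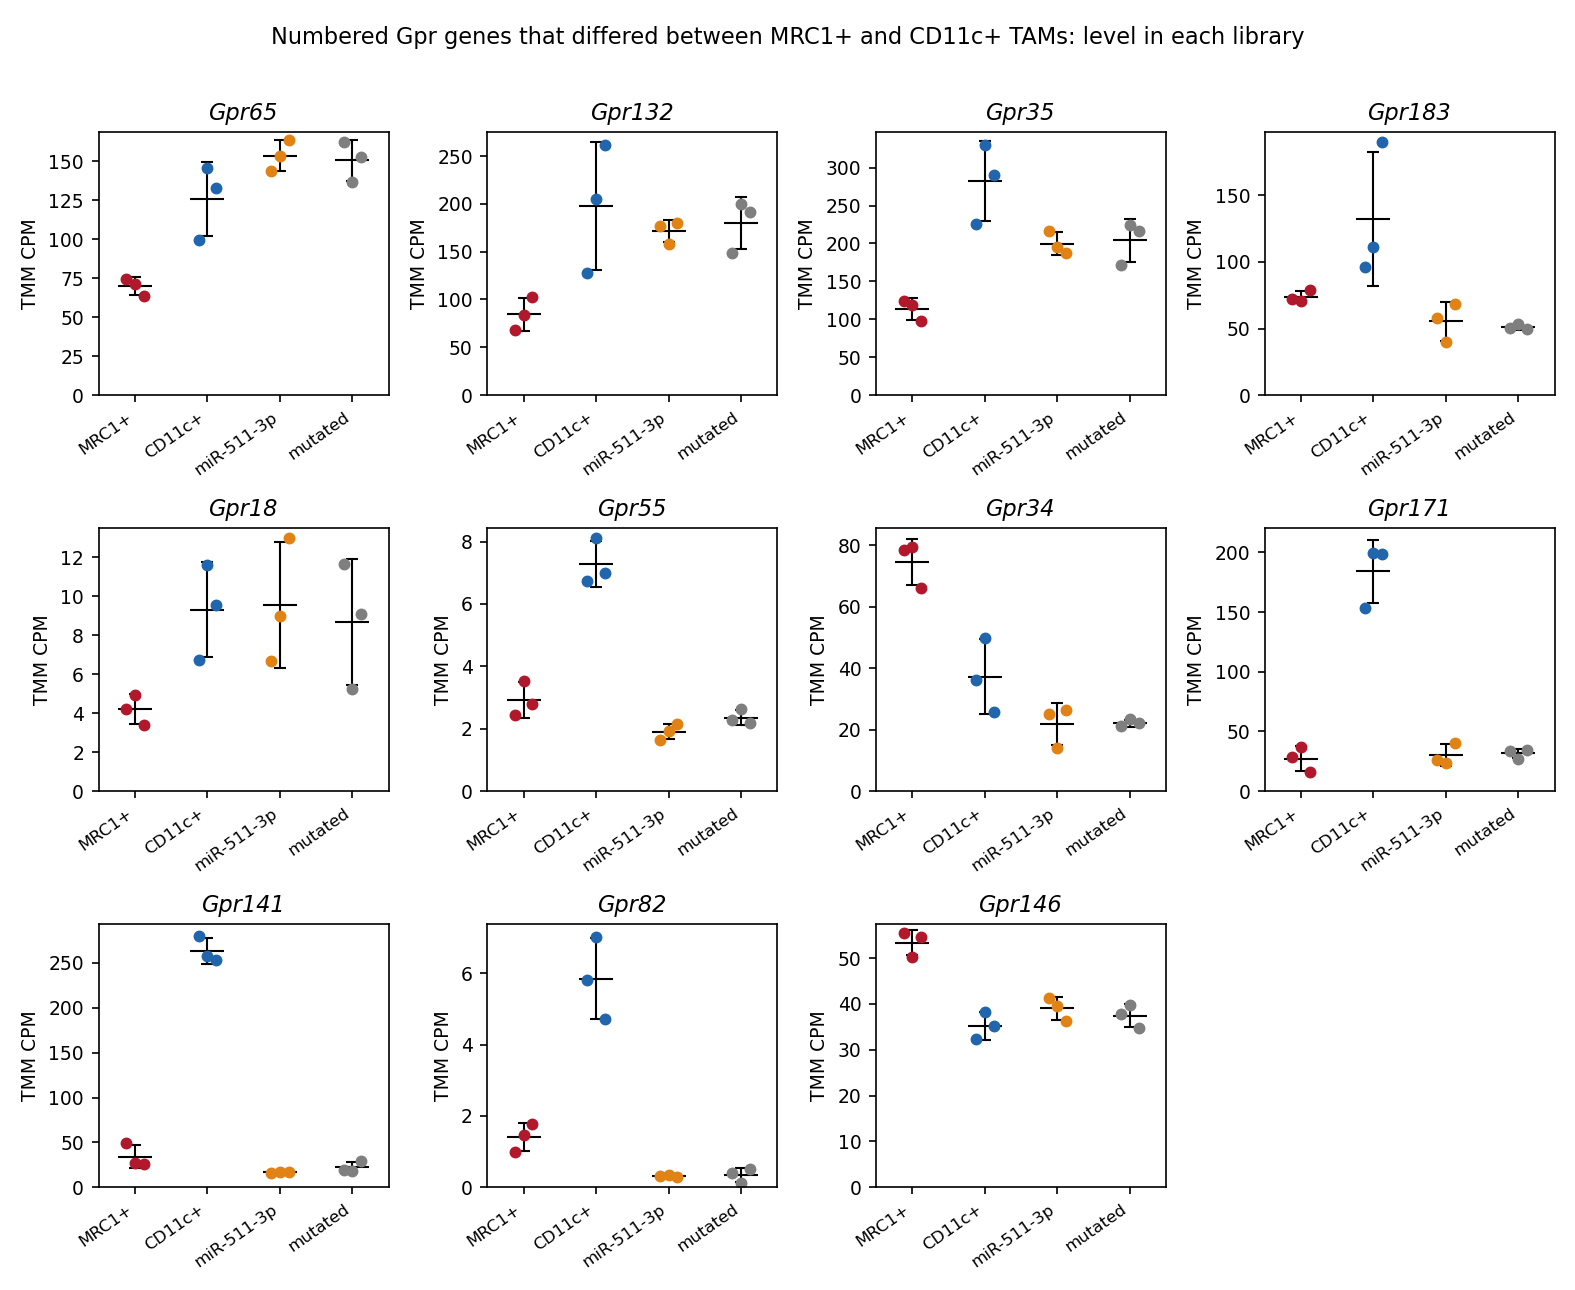
Level in TMM CPM of the 11 numbered Gpr genes that differed between sorted TAMs, in each library (points) with mean and SD (n = 3). MRC1+ libraries lie below CD11c+ libraries in 9 panels and above them for Gpr34 and Gpr146; miR-511-3p and mutated miR-511-3p libraries, scaled apart from the sorted ones, overlap in all panels but those of Gpr55 and Gpr141.

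Promoter sequences of the genes that differed are shown because these genes were defined by their expression in the 2 sorted groups, and the stretch just before the start is where myeloid factors such as PU.1 often bind. RefSeq's table (GRCm38.p6) held a promoter for 9 of the 11, all but Gpr171 and Gpr34. The 250 bases before the start are given in the direction of the gene, for the gene with the largest difference and for those with a match to a motif searched, in capitals.
Gpr141, chr13:19824258-19824507, minus strand: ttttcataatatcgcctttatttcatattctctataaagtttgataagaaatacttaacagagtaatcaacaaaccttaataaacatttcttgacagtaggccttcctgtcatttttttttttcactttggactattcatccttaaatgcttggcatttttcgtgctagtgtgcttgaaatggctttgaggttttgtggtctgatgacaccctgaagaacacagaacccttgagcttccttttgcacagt
Gpr55, chr1:85961056-85961305, minus strand: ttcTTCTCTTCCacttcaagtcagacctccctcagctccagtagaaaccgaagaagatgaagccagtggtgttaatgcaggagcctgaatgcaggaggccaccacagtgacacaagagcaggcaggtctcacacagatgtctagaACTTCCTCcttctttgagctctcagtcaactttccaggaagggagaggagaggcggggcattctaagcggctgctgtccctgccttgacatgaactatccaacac
Gpr35, downstream start, chr1:92978653-92978902, plus strand: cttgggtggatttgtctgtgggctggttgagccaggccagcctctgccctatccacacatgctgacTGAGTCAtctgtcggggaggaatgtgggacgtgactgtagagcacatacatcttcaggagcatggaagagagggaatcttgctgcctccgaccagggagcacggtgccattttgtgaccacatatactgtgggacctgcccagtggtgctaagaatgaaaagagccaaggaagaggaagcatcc
Both strands were searched for GAGGAAGT (PU.1), GGAANNGAA (a composite ETS-IRF element, which can overlap the PU.1 match) and TGANTCA (AP-1), chosen with the expression results known. The PU.1 letters were in 2.44% of all 32851 promoters and in 4 of 68 promoters of numbered Gpr genes, the ETS-IRF letters in 6.99% and 4 of 68, and the AP-1 letters in 6.75% and 3 of 68. Among the genes that differed, the Gpr55 promoter held both of the first 2 and 1 Gpr35 promoter held the AP-1 letters. The Gpr141 window held none of the 3. A match is a description of the letters and not a binding site.

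Several of these genes share a locus. The annotation (GENCODE M21) puts 37 of the 73 over another gene. Gpr34 and Gpr82 both lie inside Cask on chromosome X, on the strand opposite to it, and went in opposite directions, Gpr34 up and Gpr82 down in MRC1+ TAMs. Gpr18 and Gpr183 lie inside Ubac2 on chromosome 14, and Gpr171 inside Med12l on chromosome 3, likewise on the opposite strand. The sources used here do not say how reads were assigned by strand, so those from a host transcript cannot be told apart from reads of the gene within it. The hosts themselves, looked up after the results were known, did not pass. Each was lower in MRC1+ TAMs without overlap, as were 19.6% of all genes tested. Cask stood at 39.3 ± 1.97 CPM in MRC1+ and 43.1 ± 1.48 CPM in CD11c+ TAMs (edgeR, adjusted p = 0.306). Its log2 fold change was -0.13 ± 0.08. For Ubac2 it was -0.30 ± 0.11 (edgeR, adjusted p = 0.0998) and for Med12l -0.49 ± 0.19 (edgeR, adjusted p = 0.116). Host reads within introns were not measured. Per length, Med12l stood at 0.232 ± 0.0266 CPM per kilobase in MRC1+ and 0.326 ± 0.0347 in CD11c+ TAMs, and Gpr171 at 12.3 ± 4.70 and 82.8 ± 11.8. Gpr65 and Gpr84 overlap antisense genes, and Gpr55 and Gpr146 overlap protein-coding genes on the opposite strand.

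The list of intracellular membrane proteins, among them proteins of the Golgi and lysosome, gave no call. Of 9 listed, 8 were tested, where 6.91% of all genes tested were higher and 9.71% lower. Gpr137b, a lysosomal protein linked to mTORC1, was at 110, 123 and 128 CPM in MRC1+ and 96.1, 127 and 137 CPM in CD11c+ libraries, a log2 fold change of 0.00 ± 0.14. Gpr107, a Golgi protein, averaged 89.3 ± 6.75 CPM in MRC1+ and 93.0 ± 8.46 CPM in CD11c+ TAMs, a log2 fold change of -0.06 ± 0.10. Its relative Gpr108 had 54.6, 47.7 and 47.7 CPM in MRC1+ and 55.5, 65.8 and 69.6 CPM in CD11c+ libraries. It did not overlap but missed the threshold at -0.35 ± 0.11 (edgeR, adjusted p = 0.0663). It passed without the first CD11c+ library (adjusted p = 0.0097) and with all 12 libraries in the edgeR fit (adjusted p = 0.0194). The library left out was the CD11c+ library nearest the MRC1+ group, so the pass without it is no support for a difference.

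Gpr89, an anion channel of the Golgi, averaged 21.2 ± 1.14 CPM in MRC1+ and 19.9 ± 2.22 CPM in CD11c+ TAMs. Gpr180 averaged 20.1 ± 0.98 CPM in MRC1+ and 18.1 ± 1.05 CPM in CD11c+ TAMs. Gpr155, a cholesterol sensor of the lysosome, averaged 15.7 ± 0.868 CPM in MRC1+ and 18.5 ± 1.13 CPM in CD11c+ TAMs, without overlap. Gpr137 averaged 11.6 ± 1.16 CPM in MRC1+ and 13.0 ± 2.004 CPM in CD11c+ TAMs. Their log2 fold changes ran from -0.24 ± 0.11 for Gpr155 to 0.15 ± 0.10 for Gpr180, and none passed.

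Of the other genes over 5 CPM, none passed in edgeR's test, and the first CD11c+ library set the outcome of several. Gpr153, an orphan, had 17.3, 15.9 and 19.5 CPM in MRC1+ and 15.9, 6.91 and 8.03 CPM in CD11c+ libraries, of which the first lay just below the MRC1+ range. Its log2 fold change was 0.76 ± 0.29 (edgeR, adjusted p = 0.107), and 1.24 ± 0.15 without that library (adjusted p = 0.000631). Gpr161, which represses Hedgehog signalling at the cilium, had 4.35, 6.49 and 5.79 CPM in MRC1+ and 5.33, 2.20 and 1.65 CPM in CD11c+ libraries. Its log2 fold change was 0.81 ± 0.39 (edgeR, adjusted p = 0.189), and 1.49 ± 0.26 without it (adjusted p = 0.00398). Gpr149, known from mouse oocytes, had 6.03, 6.43 and 6.52 CPM in MRC1+ and 4.69, 3.46 and 0.618 CPM in CD11c+ libraries. Its log2 fold change was 1.04 ± 0.46 (edgeR, adjusted p = 0.156), and 1.47 ± 0.44 without it (adjusted p = 0.0362). For each of these genes the library left out was the CD11c+ library nearest the MRC1+ group, so the passes without it are no support for a difference. Leaving it out let 29.6% of all genes tested pass, against 16.6% with all libraries. The same library had the most fibroblast marker reads of the sorted libraries, and their part in these values was not tested.

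Gpr157 had 16.7, 17.2 and 15.9 CPM in MRC1+ and 19.3, 22.9 and 21.8 CPM in CD11c+ libraries, without overlap, and just missed the threshold at -0.36 ± 0.11 (edgeR, adjusted p = 0.0553). Without the first CD11c+ library it passed (adjusted p = 0.0154). Gpr85, a conserved brain receptor, averaged 16.7 ± 1.96 CPM in MRC1+ and 19.7 ± 5.73 CPM in CD11c+ TAMs. Gpr162 averaged 10.7 ± 1.46 CPM in MRC1+ and 13.4 ± 4.27 CPM in CD11c+ TAMs. Both overlapped between groups. Of the scarce genes, Gpr31b had 14, 9 and 1 reads in MRC1+ and 11, 37 and 13 reads in CD11c+ libraries. Its log2 fold change of -1.57 ± 0.67 did not pass (edgeR, adjusted p = 0.146), and without the first CD11c+ library it was -1.96 ± 0.61 and passed (adjusted p = 0.0421). Gpr17 and Gpr182 had too few reads to be tested with all libraries. Gpr17 had 6, 15 and 10 reads in MRC1+ and 5, 2 and 1 reads in CD11c+ libraries. Gpr182 had 8, 17 and 23 reads in MRC1+ and 5, 6 and 4 reads in CD11c+ libraries. Gpr17 passed as higher in MRC1+ TAMs only without the first CD11c+ library, and Gpr182 only without the first MRC1+ library. In each case, as for Gpr31b and Gpr157, the library left out was the one nearest the other group. These calls are therefore no support for a difference. Of the receptors that raise cAMP without a ligand (Gpr3, Gpr6, Gpr12), none was tested.

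The proteins that act just after a receptor were read from lists. Of 7 kinases and arrestins that switch receptors off, 3 were lower in MRC1+ TAMs and none higher. Grk3 averaged 91.1 ± 10.6 CPM in MRC1+ and 207 ± 32.2 CPM in CD11c+ TAMs, Grk2 180.4 ± 5.03 and 256 ± 37.5 CPM, and the arrestin Arrb1 160.2 ± 5.85 and 275 ± 32.3 CPM. Of 13 tested RGS proteins, which speed the return of G proteins to rest, 1 was higher and 4 were lower. Rgs3 was higher, at 21.4 ± 1.05 CPM in MRC1+ against 7.36 ± 0.804 CPM in CD11c+ TAMs. Rgs2 stood at 74.9 ± 16.2 CPM against 197.7 ± 10.2 CPM, Rgs1 at 189 ± 61.6 against 524 ± 173 CPM and Rgs14 at 16.2 ± 3.07 against 25.5 ± 0.281 CPM. Beside these counts stand the 6.91% higher and 9.71% lower of all genes.

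Of 11 tested G protein alpha subunits, Gna12 was higher and Gnai2, the main inhibitory subunit of leukocytes, lower. Gna12 averaged 126 ± 7.97 CPM in MRC1+ and 88.4 ± 7.31 CPM in CD11c+ TAMs, and Gnai2 392 ± 20.8 and 518 ± 64.7 CPM. Of 12 tested beta and gamma subunits, Gng12 was higher (53.8 ± 4.24 CPM in MRC1+, 30.1 ± 5.13 CPM in CD11c+ TAMs) and Gng10 lower (41.8 ± 3.41 and 90.7 ± 11.9 CPM). Of 13 tested adenylyl cyclases and cAMP phosphodiesterases, 3 were higher and 3 lower. Adcy3, which makes cAMP, averaged 51.9 ± 7.40 CPM in MRC1+ and 21.3 ± 1.497 CPM in CD11c+ TAMs, with Adcy9 at 21.2 ± 2.07 and 14.4 ± 2.71 CPM. Pde4b, which breaks cAMP down, averaged 305.7 ± 75.4 CPM in MRC1+ and 657 ± 230.5 CPM in CD11c+ TAMs, and Adcy4 1.49 ± 0.411 and 3.45 ± 0.80 CPM. The adjusted p of all genes named as higher or lower here was at most 0.0451 in edgeR's test (for Gnai2). Beside the counts of these lists, too, stand the 6.91% higher and 9.71% lower of all genes.

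The second comparison asked whether overexpressed miR-511-3p changes these genes relative to its mutated form. MicroRNAs lower transcripts whose 3′ UTR pairs with the seed, bases 2 to 8, or with most of it. A 7mer-m8 match pairs with all of bases 2 to 8, and an 8mer has an A after it. A 7mer-A1 match pairs with bases 2 to 7 only and has an A after them. The mature miR-511-3p, at chr2:14261051-14261072 on the plus strand of GRCm38.p6 per RefSeq's table, is shown with its seed in capitals, followed by the matches in the 3′ UTRs of the 5 tested numbered Gpr genes that hold one, with the match in capitals.
miR-511-3p: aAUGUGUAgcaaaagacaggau
Gpr89 (8mer): atataccaacaTACACATAgaccatcagtt
Gpr89 (7mer-m8): gaaaacaactgTACACATtgtccatgtttt
Gpr132 (7mer-A1): ctagcaccagtcACACATAcctggtcctct
Gpr146 (7mer-A1): aaactcaactggACACATAgcactttgttc
Gpr152 (8mer): atacagacagaTACACATAtaaattaaatt
Gpr155 (7mer-A1): aagacagaattcACACATAttcgggcaact
A match of any of these kinds, at least 7 letters long, was present in 17 of 70 numbered Gpr genes with an annotated 3′ UTR (24.3%). The share was 20.1% of 19686 genes in all.

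None of the 30 numbered Gpr genes tested passed an adjusted p of 0.05 in edgeR's test, beside 0% of all 14054 genes. None had an unadjusted p under 0.05 either, where 343 of all genes did, and with DESeq2 1 gene passed, which was no numbered Gpr gene. The lowest adjusted p of any gene was 0.482 in edgeR's test, and that of every tested numbered Gpr gene was 1. Their median log2 fold change was -0.03, against 0.00 over all genes. The groups did not overlap for 1 gene that was higher and 3 that were lower, where 2.79% of all genes tested were higher and 3.59% lower without overlap. A missed threshold does not show that the levels are alike, and the standard errors give the precision.

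**Figure D5:**
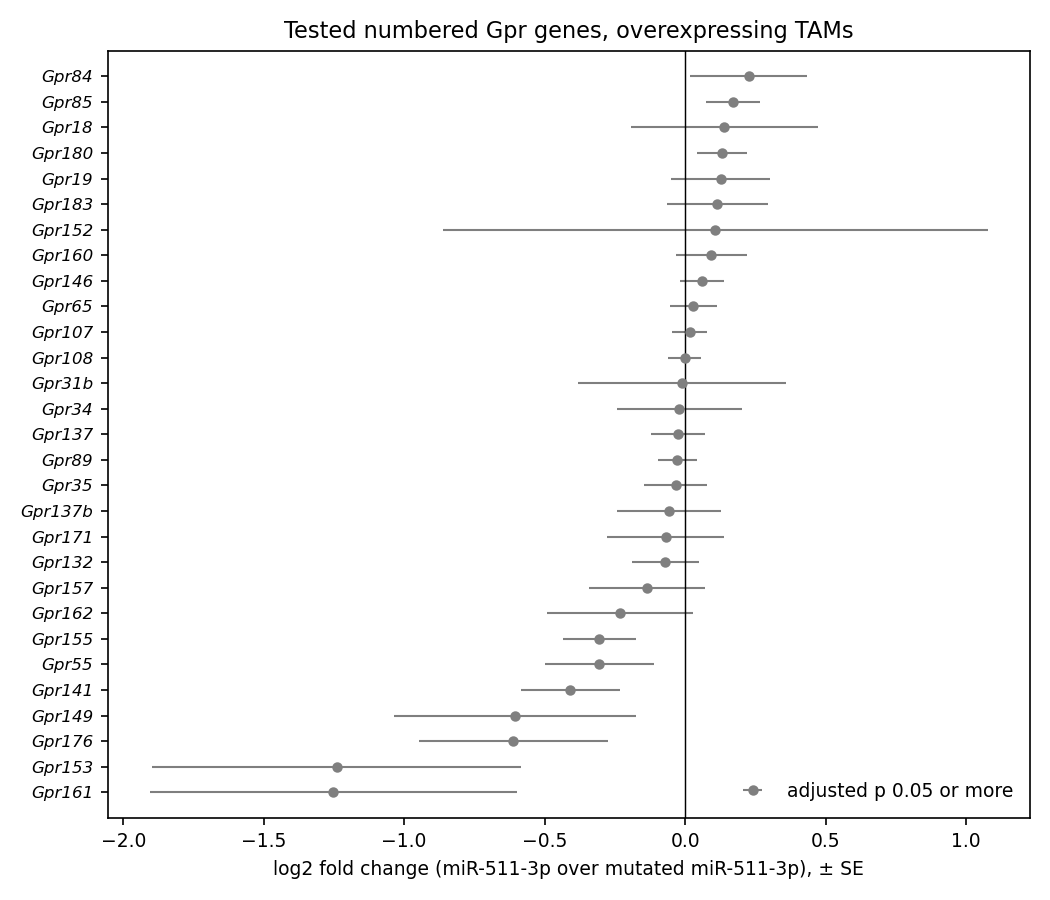
Log2 fold change, miR-511-3p over mutated miR-511-3p TAMs (bars SE, n = 3 libraries per group), of 29 of the 30 tested numbered Gpr genes in order of size. All points are grey, since none passed an adjusted p of 0.05, and they run from -1.25 for Gpr161 to 0.23 for Gpr84.

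None of the genes with a seed match passed the test. Gpr89, with 2 matches, had 20.5, 20.9 and 20.7 CPM with miR-511-3p and 21.4, 20.02 and 21.95 CPM with the mutated form, a log2 fold change of -0.03 ± 0.07. Gpr132 was at -0.07 ± 0.12, Gpr146 at 0.06 ± 0.08 and Gpr152, with well under 1 CPM on average, at 0.11 ± 0.97. Gpr155 had 20.5, 18.4 and 19.1 CPM with miR-511-3p and 20.9, 28.7 and 21.99 CPM with the mutated form. The groups did not overlap, and its log2 fold change of -0.31 ± 0.13 was -0.15 ± 0.09 without the second mutated library. Of the 5 with a match 3 were below 0, and of the 25 without one 16 were.

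The abundant genes gave log2 fold changes near 0 between the overexpressing groups. Gpr137b averaged 265 ± 48.6 CPM with miR-511-3p and 275 ± 59.6 CPM with the mutated form (log2 fold change -0.06 ± 0.18). Gpr35 averaged 199.7 ± 15.04 and 204 ± 28.1 CPM (-0.03 ± 0.11), and Gpr65 153 ± 10.1 and 150.3 ± 13.0 CPM (0.03 ± 0.08). For Gpr107, at 104 ± 5.94 and 103 ± 3.16 CPM, and Gpr108, at 81.1 ± 2.99 and 81.2 ± 3.66 CPM, the standard error was 0.06.

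Of the genes that parted the sorted groups, Gpr141 had the largest difference here, with 15.4, 17.4 and 17.5 CPM with miR-511-3p and 19.5, 18.5 and 29.0 CPM with the mutated form. The groups did not overlap, and the log2 fold change was -0.41 ± 0.18, or -0.18 ± 0.09 without the third mutated library. Gpr55 had 1.65, 1.92 and 2.14 CPM with miR-511-3p and 2.27, 2.62 and 2.18 CPM with the mutated form, a log2 fold change of -0.31 ± 0.19. Gpr171 averaged 30.2 ± 9.23 CPM with miR-511-3p and 31.7 ± 3.98 CPM with the mutated form, Gpr34 21.9 ± 6.85 and 22.2 ± 1.14 CPM, and Gpr183 55.4 ± 14.6 and 51.1 ± 1.998 CPM. Gpr18 averaged 9.55 ± 3.21 and 8.67 ± 3.22 CPM.

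The most negative values came from scarce genes in which 1 library dominated. Gpr153 had 1.35, 1.35 and 3.19 CPM with miR-511-3p and 1.95, 2.62 and 9.48 CPM with the mutated form. Its log2 fold change was -1.24 ± 0.66, and -0.21 ± 0.43 without the third mutated library. Gpr161 had 2, 5 and 12 reads with miR-511-3p and 10, 10 and 24 reads with the mutated form, a log2 fold change of -1.25 ± 0.65. That value was -0.64 ± 0.64 without the third mutated library and -2.05 ± 0.73 without the third miR-511-3p library. The third mutated library also held the most fibroblast marker reads of the overexpressing libraries, 639 CPM in sum, against 83.6 to 255 CPM with miR-511-3p and 158 and 171 CPM in the other mutated libraries, and their part in these values was not tested. On the positive side, Gpr84 had 26.8, 21.1 and 18.9 CPM with miR-511-3p and 24.5, 17.9 and 14.6 CPM with the mutated form (0.23 ± 0.21). Gpr85 had 10.48, 11.8 and 10.6 CPM against 9.41, 10.2 and 9.61 CPM (0.17 ± 0.10), the only tested gene that was higher without overlap.

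Sorted and overexpressing libraries were not compared by a test, and their values are given side by side. Gpr22 had 118 reads over the MRC1+ and 100 over the CD11c+ libraries, with 2 over the miR-511-3p and 2 over the mutated libraries, although the overexpressing libraries were sequenced more deeply. Gpr151 had 93 and 54 reads in the sorted groups, with 3 and 4 in the overexpressing groups, and Gpr21 had 155 and 93, with 14 and 11. These examples were chosen after their values were seen. Gpr22 lies inside Cog5 on the opposite strand. Gpr21 lies inside Rabgap1 on the same strand and inside Strbp on the opposite strand. Reads of these hosts cannot be told apart from reads of the gene within them, while Gpr151 overlaps no annotated gene. Reads over no annotated gene made up 21.5% to 26.6% of MRC1+ and 19.7% to 24.8% of CD11c+ libraries. They made up 8.37% to 9.84% of miR-511-3p and 7.64% to 10.4% of mutated libraries. Their part in either the high or the low counts was not tested.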

How the data were processed

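For every library the authors deposited raw read counts per Ensembl identifier, without normalization; the TruSeq RNA preparation is per the labels' protocols. The mouse build mm9 (NCBIM37) and the tools HTSeq, SAMtools 0.1.12a, TopHat 1.2.0 and Bowtie are named in the submitters' processing notes; counting mode and strand are not given in these sources, so overlapping genes cannot be told apart. The 5 summary entries per table that name no gene (no-feature reads 7.64% to 26.6% per library) were kept out. Symbols came from GENCODE M21 (GRCm38), which named 31819 of 36439 identifiers. Of 74 matching symbols, Gpr31a was not analysed here. Exon lengths and 3′ UTRs are from M21 and not from the authors' gene models.

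Each comparison used edgeR 4.0.16 in R 4.3.3 on its 6 libraries (TMM, filterByExpr, quasi-likelihood test, Benjamini-Hochberg adjustment over all genes tested, threshold 0.05). On simulated counts the steps recovered 66.3% of 2-fold changes in the sorted and 77.6% in the overexpression setting. Of the calls there, 11.8% and 7.34% were false, above the rate set by the threshold of 0.05. SE is the size of the log2 fold change over the root of F. Full values were given for genes under an adjusted p of 0.05 and those averaging at least 5 CPM in a group, and at most 4 genes of lowest p per partner list. The genes and lists were chosen with earlier results of these data known. Alternatives were other scalings and filters, DESeq2 1.42.0, all 12 libraries in 1 fit, a replicate block and leaving out each library. Values of some numbered Gpr genes are not reported here, though the counts include them. Replicates of a group differed beyond sampling noise.

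Whether the replicate numbers of the labels pair the libraries was checked by correlating, across genes, deviations from group means, against a limit of 0.1. With log2(CPM + 1), the first scale used, same-numbered sorted libraries gave 0.0871, 0.378 and 0.313, so the first pair missed the limit. With log2 CPM at a prior count of 2, used next, they gave 0.104, 0.337 and 0.25. The overexpressing pairs gave 0.171, 0.267 and 0.452 on the first scale and 0.147, 0.258 and 0.462 on the second. The pairing of the sorted libraries thus rests on the scale, and blocked values were not taken as the main result.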

Additional observations from a re-analysis of the deposited data

How the results depend on the processing

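Of 351 values recomputed for the sorted comparison, over the members of at least 5 CPM or past the threshold, 11 lost and 10 gained the threshold, and of 336 for the overexpression comparison none did; no value past the threshold changed direction. Values near 0 that never passed did change sign, 4 of 2 genes in the sorted and 24 of 13 genes in the overexpression comparison. With a library left out, the count of all genes that differed between sorted groups ranged from 1270 to 4707, against 2597, and was 1270 without the second MRC1+, 1279 without the third MRC1+, 1490 without the second CD11c+ and 4707 without the first CD11c+ library. Numbered Gpr genes that were higher ranged from 1 (without the second MRC1+ library) to 6 (without the first CD11c+ library), and those that were lower from 7 to 13. Upper-quartile scaling gave 1348 higher and 1325 lower genes in all, against 1080 and 1517, and the same 2 and 9 numbered Gpr genes. The replicate block gave 2788 genes in all and 2 higher and 10 lower numbered Gpr genes; apart from Gpr84 it changed no call among those with full values. In the overexpression comparison DESeq2, the 12-library fit and the replicate block each called 1 gene, against 0, and no numbered Gpr gene. Gpr153 passed with DESeq2 (adjusted p = 0.0418) and without the filter (adjusted p = 0.0317, edgeR). In the sorted and overexpression comparisons 37 and 43 numbered Gpr genes did not pass the filter on low counts and were not tested.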

Other observations

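Genes that once carried a Gpr number and were renamed when their ligand or family was known were read from 2 lists for the sorted comparison. Of 9 tested with a known ligand, 4 were lower in MRC1+ TAMs and none higher in edgeR's test, beside 9.71% lower and 6.91% higher of all 15622 genes tested. Ffar2, a receptor for short-chain fatty acids, averaged 0.182 ± 0.129 CPM in MRC1+ and 6.17 ± 2.54 CPM in CD11c+ TAMs. Its MRC1+ values were near the floor, and it came past the filter on low counts through its CD11c+ libraries alone. Xcr1, a chemokine receptor of cross-presenting dendritic cells and also on the dendritic cell marker list, averaged 1.42 ± 0.402 and 6.47 ± 1.89 CPM. Cx3cr1, the fractalkine receptor, averaged 56.3 ± 8.92 and 123 ± 15.1 CPM, and Hcar2, a receptor for nicotinic acid and ketone bodies, 20.8 ± 2.40 and 42.9 ± 5.21 CPM. Of 9 tested adhesion receptors, Adgrg1 was higher (10.54 ± 2.96 CPM in MRC1+, 5.12 ± 0.704 CPM in CD11c+ TAMs), and Adgrg5 (0.934 ± 0.489 and 19.3 ± 3.41 CPM) and Adgre4 (11.8 ± 4.14 and 84.8 ± 19.5 CPM) were lower. None of these genes passed between miR-511-3p and mutated miR-511-3p TAMs, where Ffar2 was not tested.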
